A study of Glycine max with 18 samples.

Results

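The response of soybean roots to 10 h of dehydration was compared between the cultivars W82 (Williams 82) and DT2008 as a difference of differences, the change from DT-C to DT-D10 minus the change from W-C to W-D10. The comparison rested on 12 of the 18 arrays of the series, 3 in each of these 4 groups. W-C and DT-C were roots of well-watered 14-day-old plants of Williams 82 and DT2008 at 0 h, and W-D10 and DT-D10 were roots of plants of the same age and cultivar that had been lifted from their pots and left to dry on paper for 10 h. The other 6 arrays held the same cultivars after 2 h (W-D2 and DT-D2). No transgene or mutant was used, and each cultivar was grown in pots of its own. The replicates were described as independent biological samples. Roots of plants kept watered for 10 h were not among the samples. By the paper's methods, drying took place at a lower temperature and in dimmer light than growth. The passage of 10 h, the loss of water, the removal from the pot and the change of temperature and light therefore cannot be told apart. The cultivars were matched by hours of drying and not by water content. The paper reports that the aerial parts of DT2008 plants held more water than those of W82 during the treatment. Equal hours of drying were therefore not equal water loss. Plant water content was not analysed here, and its part in the differences between responses was not tested.

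The difference of differences answers a question that the separate comparisons W-D10/W-C and DT-D10/DT-C do not, namely whether a gene responded differently in the 2 cultivars. A positive value means that the response was more positive in DT2008, either through stronger induction or through weaker repression. A negative value means the opposite. Drying roots accumulate the hormone abscisic acid, which acts through transcription factors such as those of the NAC, bZIP and AP2/ERF families. Among the genes these factors control are those for protective sugars and late embryogenesis abundant proteins. Many root genes also follow the circadian clock or the oxygen supply of the tissue, and both can change while a root dries.

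All values were log2 signals of single probe sets (below, probes) of the 66K soybean array, and the median of each probe over the 18 arrays had been set to 0. A value of 0 is therefore the middle of the 18 arrays for that probe, and levels of different probes cannot be set against each other. The paper links the array's design to the soybean genome sequence and names W82 as a sequenced cultivar. Whether the probes match DT2008 transcripts equally well was not tested, and signal near background could not be judged. Low DT2008 values and small DT2008 changes are to be read with that limit. The test was limma's moderated test over all 66195 probes, with Benjamini-Hochberg adjustment, and a probe was called at an adjusted p under 0.05 and a difference of at least 1 on the log2 scale (2-fold). The median SE of the difference over all probes was 0.252. RNA came from whole roots, where fewer cells of a type and less RNA per cell cannot be told apart.

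Of the 66195 probes, 103 responded more positively in DT2008 (0.156%) and 158 more negatively (0.239%). The lowest adjusted p was 0.000114. Without the fold threshold the counts were 112 and 171, and 3580 and 4041 probes had an unadjusted p under 0.05. The median difference over all probes was 0.0039. The called probes had median differences of 1.502 and -1.42, and the values ran from 1.05 to 5.07 and from -1.002 to -4.76. A pair of the 103 probes had identical values on every array and stood for 1 measurement.

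The calls rested on few arrays per group. When each of the 12 arrays was left out in turn, all 261 called probes kept their sign, whereas 37 of the 103 and 50 of the 158 kept their call in every one of the 12 fits. The counts ran from 46 to 127 and from 69 to 232. They fell by over 1.5 times without DT-C replicate 1 (58 and 84), DT-D10 replicate 1 (46 and 69), DT-D10 replicate 3 (54 and 71), W-C replicate 1 (61 and 89) and W-D10 replicate 2 (61 and 98), and the count of more positive probes also fell without DT-C replicate 3 (65). W-D10 replicate 3 had the lowest estimated array weight of the 18, 0.523 against at most 1.45, and W-D10 the lowest correlation between replicates, 0.369. Without that array the counts were the highest, 127 and 232.

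The responses of the cultivars ran broadly in parallel. Over all 66195 probes the changes of the 2 cultivars, which share no array, had a Pearson correlation of 0.691 and a Spearman correlation of 0.508, across probes that are not independent replicates. In W-D10/W-C, 2307 probes rose (3.49%) and 1100 fell (1.66%). In DT-D10/DT-C, 1820 rose (2.75%) and 1134 fell (1.71%). Of these, 1319 rose in both cultivars and 389 fell in both.

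**Figure D1:**
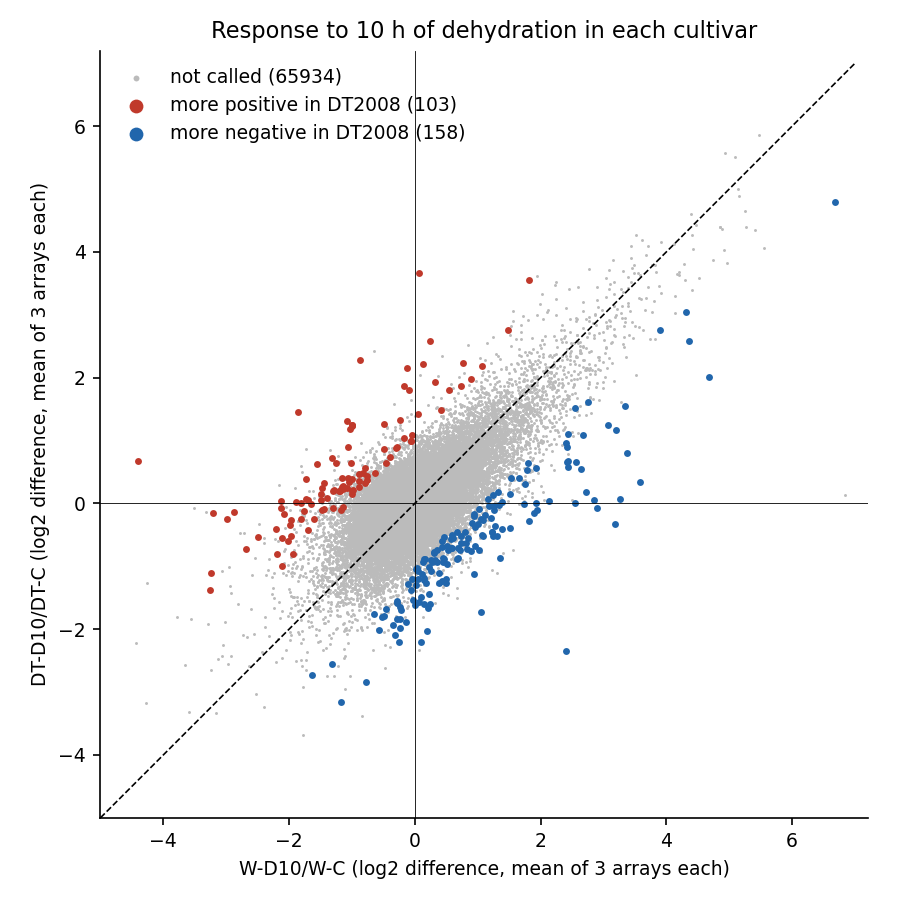
Log2 change after 10 h of dehydration in W82 (horizontal axis) and in DT2008 (vertical axis), each the mean of 3 arrays minus the mean of 3 arrays, with 1 point for each of 66195 probes. The dashed line marks equal responses, the 103 red probes lie above it, the 158 blue probes lie below it, and the 2 cultivars moved in opposite directions for 62 of the red and 95 of the blue probes.

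A call in a single cultivar rarely came with a call for the difference between cultivars, although a missing call does not show equal responses. Of the 988 probes that rose in W-D10/W-C and were not called as higher in DT-D10/DT-C, 54 were called for the difference (5.47%). Of the 501 probes with the reverse pattern, 24 were called (4.79%). Among the probes that fell, the counts were 58 of 711 (8.16%) for W-D10/W-C alone and 49 of 745 (6.58%) for DT-D10/DT-C alone. In the order given, the median differences of these sets were -0.64, 0.53, 0.82 and -0.74. They were -0.11 for probes that rose in both cultivars and -0.04 for those that fell in both. The percentages and medians are given as a description, since the sets and the test use the same arrays.

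Among the 103 more positive probes, 55 fell in W-D10/W-C and were not called in DT-D10/DT-C, and 21 rose in DT-D10/DT-C alone. A further 3 rose in both cultivars, 2 fell in both, and 19 were called in neither. Among the 158 more negative probes, 53 rose in W-D10/W-C alone, 48 fell in DT-D10/DT-C alone, 12 rose in both, 3 fell in both and 41 were called in neither. Calls in opposite directions in the 2 cultivars were found for 4 probes in all, 3 of them more positive in DT2008. One of the 4 was a probe of Glyma.05G220500 and one a probe of Glyma.10G115300, both cytochrome P450 genes described below.

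Most of the called probes already differed between the cultivars before the treatment. In DT-C/W-C, 950 probes of the array were higher in DT2008 (1.44%) and 1367 lower (2.07%). Of the 103 more positive probes, 76 were lower in DT-C than in W-C, and in DT-D10/W-D10 5 were called lower and 11 higher. Of the 158 more negative probes, 81 were higher in DT-C than in W-C, and in DT-D10/W-D10 5 were called higher and 29 lower. The cultivars differed by call at 10 h and not before for 8 of the 103 and 25 of the 158 probes, and at neither time for 18 and 48. The array as a whole had 346 probes higher (0.523%) and 797 lower (1.20%) in DT-D10/W-D10. The absolute difference between cultivars was larger before than after 10 h for 89 of the 103 and 112 of the 158 probes. These counts use the same arrays as the rule that called the probes and are given as a description.

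The 2 h arrays entered none of the means compared at 10 h, although they share the estimate of spread in the test. The probes were chosen on their values at 0 and 10 h, so that the move of the cultivar difference between those times, and a smaller difference at 2 h than at 0 h, follow in part from the choice and are given as a description. Over all probes, 1093 were higher (1.65%) and 1694 lower (2.56%) in DT-D2/W-D2. Of the 103 more positive probes, 25 were lower and 6 higher in DT-D2 than in W-D2, and the median difference went from -1.29 at 0 h to -0.49 at 2 h and 0.16 at 10 h. Of the 158 more negative probes, 29 were higher and 11 lower in DT-D2, and the median went from 1.02 to 0.34 and -0.35. The median over all probes was 0.0123, 0.0275 and 0.0213 at the 3 times.

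**Figure D2:**
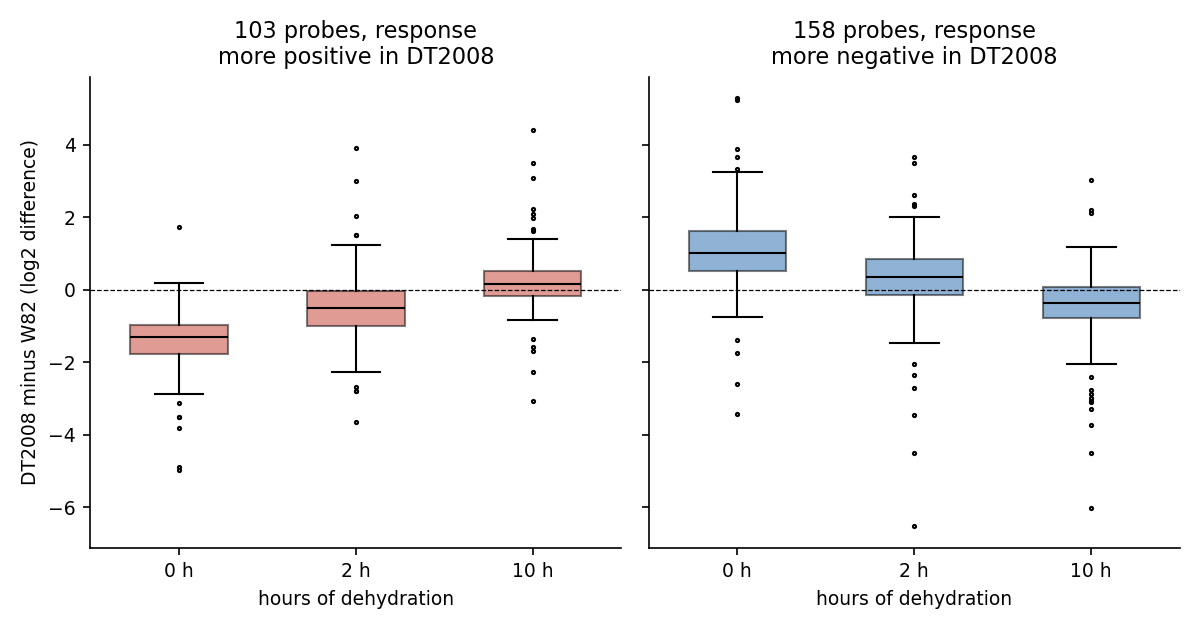
Difference between DT2008 and W82 on the log2 scale at 0, 2 and 10 h for the 103 probes with a more positive response (left) and the 158 with a more negative response (right) in DT2008 at 10 h. Boxes span the quartiles with the median as a line, whiskers reach the last value within 1.5 box lengths and points lie beyond them, and the medians move from -1.29 to 0.16 and from 1.02 to -0.35, a direction set by the choice of the probes.

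Only part of the array could be named. Of the 66195 probes, 5833 were paired with exactly 1 gene, 2975 of them through the identifier columns of the study's tables of responsive genes and 2858 through the array's gene symbols. Of the called probes, 29 of 103 and 49 of 158 were paired, which is 0.497% and 0.840% of the paired probes. Among the 2975 probes paired through the study's tables, 24 (0.807%) were more positive and 43 (1.45%) more negative. The gene lists below draw on paired probes, so these shares, and not those of the whole array, are the ones to set beside their counts. Roles given below are those known for the closest Arabidopsis gene unless soybean is named, and a gene named as a match carries only that description.

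Genes of the low-oxygen response stood among the largest positive differences. In Arabidopsis these genes are switched on when roots lack oxygen, by transcription factors that plant cysteine oxidases mark for breakdown when oxygen is present. Glyma.06G297600, a member of the wound-responsive family that belongs to the low-oxygen genes of Arabidopsis, had a difference of 3.06 ± 0.41 (SE, adjusted p = 0.0019). The W82 arrays read 3.15, 3.54 and 4.07 before and 1.31, 0.0028 and -0.19 after 10 h, and those of DT2008 0.14, -0.01 and 0.06 before and -0.43, -0.0028 and 0.17 after. The W-C values lay above all 9 others, and the DT-C values overlapped those of DT-D10. The gene fell in W82 at -3.21 (adjusted p = 3.5e-07), while the change in DT2008 was -0.15 (adjusted p = 0.82).

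Glyma.16G037600, a match of the Arabidopsis plant cysteine oxidase gene AT5G39890, had a difference of 2.15 ± 0.26 (SE, adjusted p = 0.00071). Values on single arrays were 3.48, 3.12 and 2.97 in W-C and 0.36, -0.05 and -0.48 in W-D10, against 0.67, 0.901 and 0.93 in DT-C and -0.43, -0.14 and -0.23 in DT-D10. All W-C values lay above all DT-C values, and both lay above the values at 10 h, which overlapped between cultivars. The gene fell in both cultivars, at -3.25 (adjusted p = 1.1e-09) for W82 and -1.100 (adjusted p = 0.00034) for DT2008, from a starting value that was lower in DT2008 with a log2 difference of -2.35 (adjusted p = 8.6e-08). At 2 h the cultivars differed with a log2 difference of -0.43 (adjusted p = 0.12). Both genes kept their call in every fit that left out 1 array.

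Of the 18 probes of the low-oxygen list, all of them in the study's tables and so chosen on these samples, 3 responded more positively in DT2008 and 0 more negatively, against 0.807% and 1.45% of the probes from those tables and 0.156% and 0.239% of all probes. The other called gene, Glyma.06G303000, also of the wound-responsive family, was chosen here after its values were seen and had a difference of 1.12 (adjusted p = 0.033). In all, 15 of the 18 values lay above 0, and the median was 0.57 against 0.0039 over all probes. The list fell in both cultivars, with 16 of 18 probes called as lower in W82 and 14 in DT2008 at 10 h. Over all probes the shares called as lower were 1.66% and 1.71%. Since the list was chosen on these samples, its high counts follow in part from the choice. Signal may be shared between members of the wound-responsive family if their sequences are alike, which was not tested. The most negative member, Glyma.06G298600, had -1.65 (adjusted p = 0.14).

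Cytochrome P450 genes, which encode oxidising enzymes of secondary metabolism, gave the largest positive difference of a named gene. Glyma.05G220500, a match of CYP716A1 from a family whose members oxidise triterpenes, had 3.302 ± 0.63 (SE, adjusted p = 0.025). Its W-C arrays read 3.01, 2.46 and 2.57 and its W-D10 arrays 0.31, 0.39 and 1.78, and the corresponding DT2008 arrays -2.19, -2.34 and -2.100 and -0.31, -1.53 and -0.45. Every W-C value lay above every W-D10 value and every DT-C value below every DT-D10 value, so that W82 fell and DT2008 rose. The cultivars still did not overlap at 10 h, where DT2008 was lower with a log2 difference of -1.59 (adjusted p = 0.045). This call held in 6 of the 12 fits that left out 1 array.

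Glyma.10G115300, a match of CYP71B34, had 2.21 ± 0.295 (SE, adjusted p = 0.0019) and was called in every such fit. In W-C the arrays read 0.46, -0.0032 and 0.62, in W-D10 -0.22, -0.83 and -0.95, in DT-C -0.92, -1.13 and -0.85 and in DT-D10 0.36, 0.0032 and 0.295. Here the order of the cultivars turned, since DT2008 was lower before treatment, with -1.33 (adjusted p = 0.00031), and had 0.89 (adjusted p = 0.017) at 10 h, a difference under 2-fold. Of the 33 P450 probes of the list, 27 of them in the study's tables and so chosen on these samples, 2 were more positive and 0 more negative. The shares were 0.497% and 0.840% of paired probes and 0.807% and 1.45% of the probes from those tables. The list median was -0.11. A lignin gene of the same enzyme class that the list did not match, Glyma.08G140600, is given with the negative differences.

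An ammonium transporter gene fell in W82 and changed less in DT2008. Glyma.01G123400, a match of the ammonium transporter AMT2, had 1.803 ± 0.25 (SE, adjusted p = 0.0022). The W82 arrays read 2.34, 1.91 and 2.19 before and -0.205, 0.04 and -0.04 after 10 h, and those of DT2008 -0.01, 0.01 and 0.18 before and -0.44, -0.35 and -0.27 after. The W-C values stood above all other groups, and the W-D10 values overlapped those of DT-C. The change was -2.21 (adjusted p = 6.1e-08) in W82 and -0.41 (adjusted p = 0.14) in DT2008. The 2 h arrays read 1.42, 2.26 and 1.72 in W-D2 and -0.196, -0.33 and -0.19 in DT-D2, so that W82 was still high at 2 h. Of 16 nitrogen, phosphate and sulphate transport probes this was the only one called, and the list median was 0.34. The study's tables held 12 of the 16. The shares called as more positive were 0.497% of paired probes and 0.807% of the probes from those tables. Glyma.12G078900, a match of the nitrate transporter NRT2.4 and the only larger value of the list, had 1.89 (adjusted p = 0.092).

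The remaining large positive differences came from genes of several classes. Glyma.09G033700, an invertase or pectin methylesterase inhibitor, had 1.91 ± 0.21 (SE, adjusted p = 0.00028). Values on single arrays were 1.72, 2.06 and 1.83 in W-C and 0.02, -0.36 and -0.27 in W-D10, against -0.02, 0.06 and 0.37 in DT-C and -0.14, 0.104 and -0.05 in DT-D10. The W-C values stood above all 9 others, which overlapped, and the call held in every fit that left out 1 array. ENOD93, a soybean early nodulin gene whose relatives are expressed in young nodules, had 1.95 ± 0.35 (SE, adjusted p = 0.017), with W-C at 1.98 ± 0.32 and W-D10 at -0.51 ± 0.23 (mean ± SD, n = 3). It was the only one of 15 nodule marker probes that was called, beside 0.497% of paired probes called as more positive.

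Glyma.20G139300, a match of the cysteine-rich receptor-like kinase CRK25, had 1.902 ± 0.29 (SE, adjusted p = 0.0062). Its W-C arrays read 2.35, 2.399 and 2.34 and its W-D10 arrays 1.15, 0.81 and 1.34, and the corresponding DT2008 arrays -2.79, -2.599 and -2.44 and -1.81, -1.91 and -2.18. DT2008 lay below W82 on every array at both times, with -4.97 (adjusted p = 1.2e-11) before treatment and -3.07 (adjusted p = 2.1e-08) at 10 h. W82 fell with a change of -1.26 (adjusted p = 0.00029), while the change in DT2008 of 0.64 (adjusted p = 0.046) was under 2-fold. Glyma.13G190000, which encodes an NB-ARC protein of the class of intracellular immune receptors, showed the same order, with a difference of 1.76 ± 0.28 (SE, adjusted p = 0.0081), a change of -1.700 in W82 and one of 0.06 in DT2008. Both calls held in every fit that left out 1 array.

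Glyma.04G168300, a match of the cycling DOF factor CDF3, differed from the genes above because it rose in DT2008 and was not called in W82. In W-C the arrays read -0.01, -0.43 and 0.01, in W-D10 -0.46, -0.55 and 0.29, in DT-C -0.08, 0.28 and -0.09 and in DT-D10 2.06, 2.36 and 1.09. The DT-D10 values lay above those of the other groups, which overlapped. The difference was 1.896 ± 0.37 (SE, adjusted p = 0.03), with 1.799 (adjusted p = 9.9e-05) in DT2008 and -0.097 (adjusted p = 0.86) in W82. In DT-D2 the arrays read 0.73, 0.83 and 1.09, also above those of W-D2 at -0.21, -0.35 and -0.18. The call held in 4 of the 12 fits.

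Glyma.11G069100, a match of the small MYB-related factor RL6, had 2.04 ± 0.42 (SE, adjusted p = 0.037) and was called in 4 of the 12 fits. Glyma.08G346300, a bHLH transcription factor, had 1.66 ± 0.34 (SE, adjusted p = 0.037) and was called in 2 of the 12. Both fell in W82, with -1.32 and -1.01, and had 0.72 and 0.64 in DT2008, neither of which was called. Chalcone synthase, the first enzyme of flavonoid synthesis, was represented by Glyma.08G109200, which had 1.07 ± 0.23 (SE, adjusted p = 0.049). It rose in DT2008 by 1.97 (adjusted p = 1.7e-07) against 0.901 (adjusted p = 0.00073) in W82, and its call was lost in all 12 fits that left out 1 array. The class III peroxidase Glyma.20G001400 had 1.06 ± 0.21 (SE, adjusted p = 0.037) and was called in 3 of the 12 fits.

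**Figure D3:**
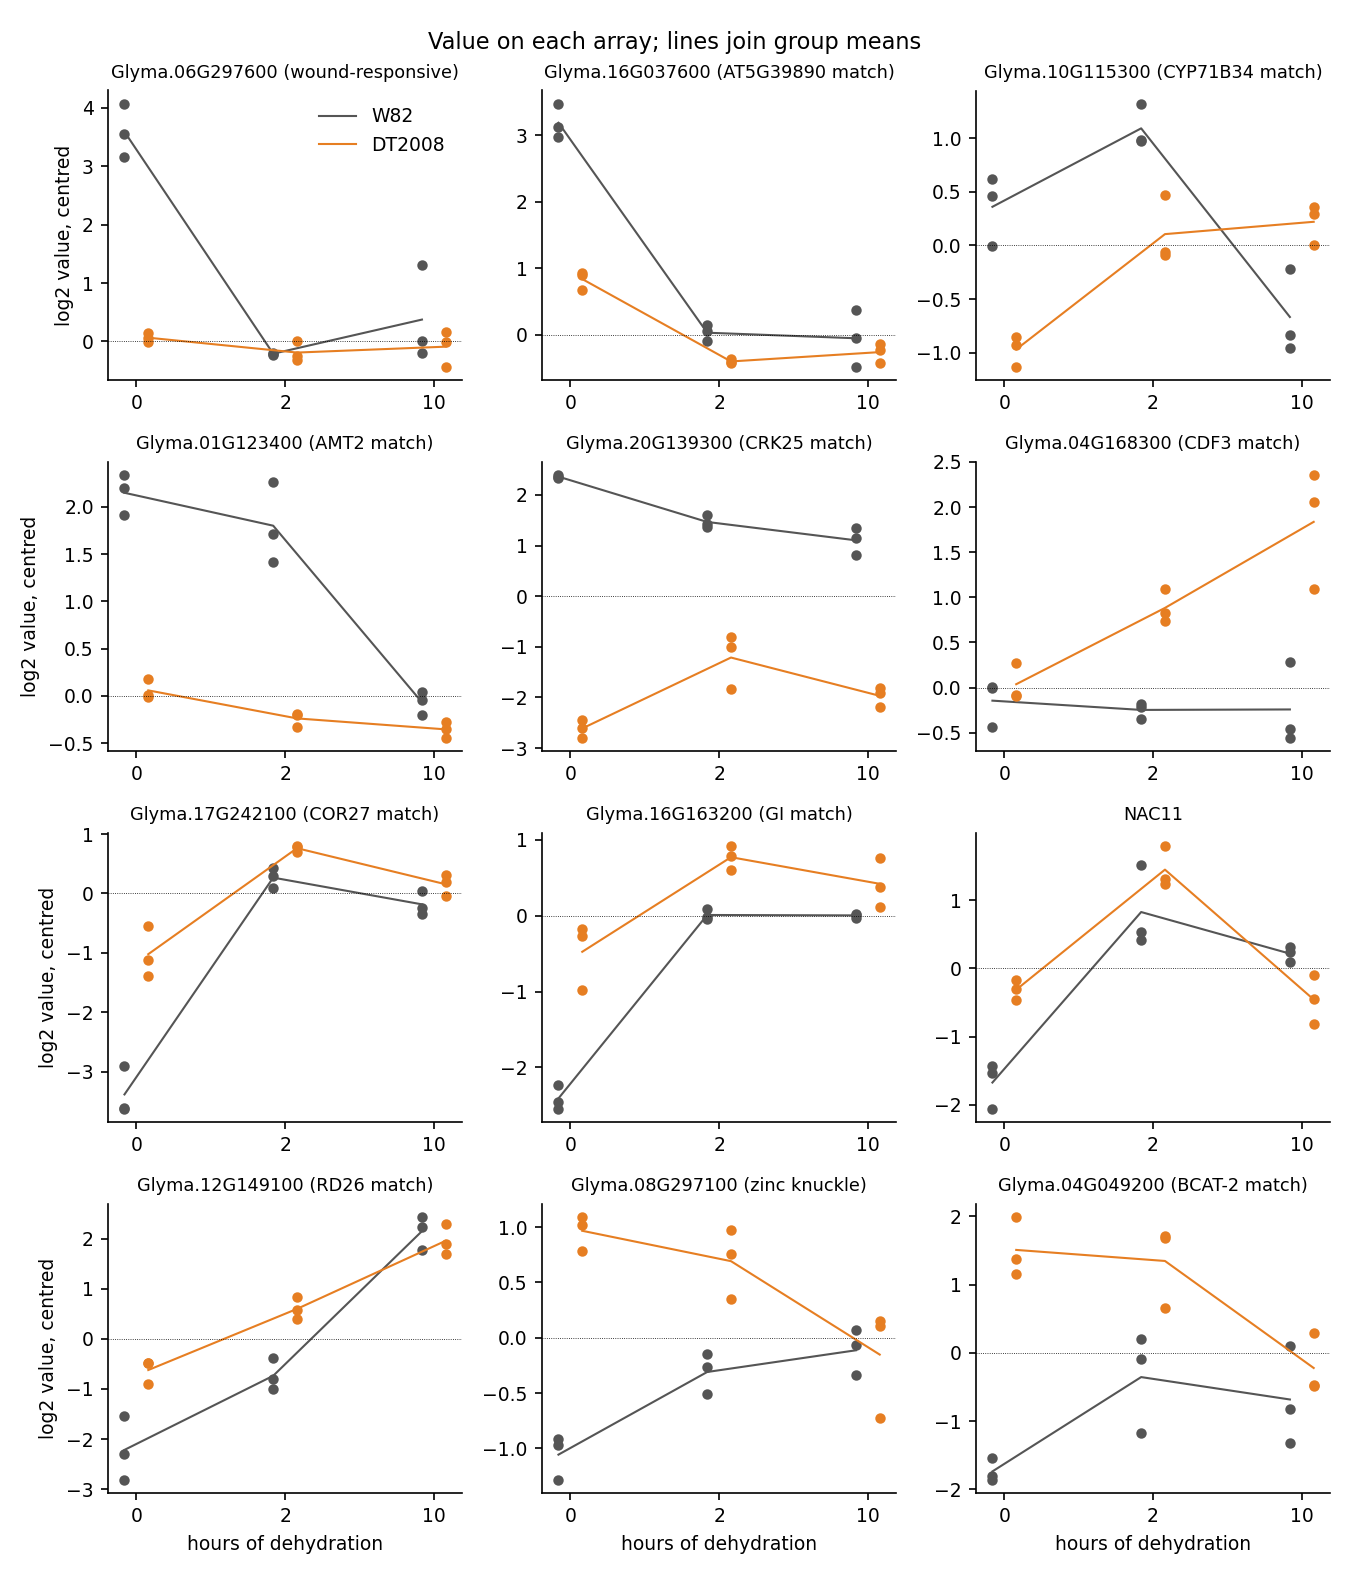
Log2 values centred on each probe's median, 1 point per array, for 12 of the named genes in W82 (grey) and DT2008 (orange) at 0, 2 and 10 h of dehydration, drawn at equal spacing, with lines through the means of 3 arrays. In several panels W82 starts higher, in several others DT2008 starts higher, and in many of both kinds the means lie closer together at 10 h than before. Not every panel follows this course, since in some the cultivars stay well apart or change their order by 10 h. For CDF3 only the DT2008 means rise.

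The largest negative difference of a named gene belonged to an enzyme of amino acid breakdown. Glyma.04G049200, a match of the branched-chain aminotransferase BCAT-2, had -2.78 ± 0.53 (SE, adjusted p = 0.027). The W82 arrays read -1.54, -1.86 and -1.81 before and -0.83, 0.095 and -1.32 after 10 h, and those of DT2008 1.99, 1.38 and 1.15 before and -0.49, 0.29 and -0.47 after. The W-C values lay below and the DT-C values above all values at 10 h, which overlapped between cultivars. DT2008 fell with a change of -1.73 (adjusted p = 0.004), while W82 had 1.05 (adjusted p = 0.067), and the call held in 6 of the 12 fits. Glyma.18G278900 is described as a methylenetetrahydrofolate reductase family member and matches AT5G38710, a proline dehydrogenase gene of Arabidopsis. It had -1.87 ± 0.36 (SE, adjusted p = 0.027), fell in DT2008 with a change of -1.66 (adjusted p = 0.00016) and had 0.202 (adjusted p = 0.67) in W82. Its DT-C arrays read 1.14, 2.24 and 1.82, above all 9 others, and its call held in 6 of the 12 fits.

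The NAC transcription factors, several of which are induced by drought and abscisic acid, held 3 probes that responded more negatively in DT2008. NAC11, named by its soybean symbol, had -2.04 ± 0.36 (SE, adjusted p = 0.015). Values on single arrays were -1.53, -2.06 and -1.44 in W-C and 0.24, 0.31 and 0.099 in W-D10, against -0.17, -0.47 and -0.301 in DT-C and -0.45, -0.099 and -0.82 in DT-D10. The W-C values lay below all others. W82 rose by 1.89 (adjusted p = 3.5e-05), and DT2008 had -0.14 (adjusted p = 0.8). The 2 h arrays were higher, at 0.54, 0.42 and 1.53 in W-D2 and 1.24, 1.802 and 1.32 in DT-D2, and at 10 h the DT2008 values overlapped those of DT-C.

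RD26, a NAC factor induced by dehydration, has 2 matching soybean genes among the calls, and both rose in both cultivars. Glyma.12G149100 had -1.79 ± 0.37 (SE, adjusted p = 0.041). Its W-C arrays read -2.81, -2.29 and -1.55 and its W-D10 arrays 2.44, 2.23 and 1.78, and the corresponding DT2008 arrays -0.49, -0.895 and -0.48 and 1.89, 2.301 and 1.69. The cultivars did not overlap before treatment and overlapped at 10 h, so that the larger rise in W82, 4.37 against 2.58, started from a lower value. Glyma.06G248900 had -1.02 ± 0.21 (SE, adjusted p = 0.037), with 2.54 in W82, 1.52 in DT2008 and a difference of -0.01 (adjusted p = 0.99) between cultivars at 10 h. Each was called in 4 of the 12 fits that left out 1 array. Of 32 NAC probes, 20 of them in the study's tables and so chosen on these samples, 0 were more positive and 3 more negative. The shares were 0.497% and 0.840% of paired probes and 0.807% and 1.45% of the probes from those tables. In the NAC list 25 values lay below 0, and the median was -0.37. Of the 32 NAC probes, 16 rose in W82 and 10 in DT2008 at 10 h, beside 3.49% and 2.75% of all probes. Since most of the list was chosen on these samples, high counts follow in part from the choice. A pair of NAC15 probes had the same differences and may stand for 1 measurement, and their value is the list median.

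Of the 11 probes of the clock and B-box list, 9 of them in the study's tables, 0 were more positive and 2 more negative. The shares were 0.497% and 0.840% of paired probes and 0.807% and 1.45% of the probes from those tables. The COR27 match, described with them, is outside the list, and CDF3 above, whose relatives act in the clock's output, had the opposite sign. GIGANTEA (GI) is a clock protein of the evening, and the Arabidopsis genes COR27 and STH2 encode a clock-controlled repressor and a B-box transcription factor of light signalling. Glyma.16G163200, the GI match, had -1.52 ± 0.27 (SE, adjusted p = 0.016). In W-C the arrays read -2.23, -2.54 and -2.46, in W-D10 0.01, 0.03 and -0.02, in DT-C -0.27, -0.98 and -0.17 and in DT-D10 0.38, 0.76 and 0.12. The W-C values lay below all others, and the 10 h values of DT2008 lay above those of W82 by 0.42 (adjusted p = 0.27), which was not called. W82 rose by 2.42, while DT2008 had 0.897 (adjusted p = 0.0033). The call held in 9 of the 12 fits.

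Glyma.17G242100, the COR27 match, had -2.02 ± 0.296 (SE, adjusted p = 0.0042) and was called in every fit that left out 1 array. The W82 arrays read -2.91, -3.62 and -3.61 before and -0.34, 0.04 and -0.25 after 10 h, and those of DT2008 -1.12, -1.395 and -0.54 before and 0.196, 0.31 and -0.04 after. Both cultivars rose, W82 by 3.196 and DT2008 by 1.18, and the values overlapped at 10 h. At 2 h W82 had already reached 0.295, 0.08 and 0.42. Glyma.14G216500, the STH2 match, had -1.27 ± 0.25 (SE, adjusted p = 0.035), with 0.53 (adjusted p = 0.051) in W82 and -0.73 (adjusted p = 0.0093) in DT2008, and was called in 3 of the 12 fits. In the clock and B-box list 9 values lay below 0 and the median was -0.40. Glyma.04G228300, a match of the clock gene PRR5, had -0.96 (adjusted p = 0.017), just under the fold threshold.

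Other regulators with negative differences were called singly. Glyma.01G069300, a match of bZIP42, had -1.29 ± 0.197 (SE, adjusted p = 0.0062) and was called in every fit that left out 1 array. Values on single arrays were -0.01, -0.21 and -0.09 in W-C and 0.33, 0.74 and 0.37 in W-D10, against 0.26, 0.36 and 0.15 in DT-C and -0.503, -0.33 and -0.52 in DT-D10. The DT-D10 values lay below and the W-D10 values mostly above those of the controls, and neither response reached 2-fold. HSFB1, a heat shock factor that can act as a repressor, had a match in Glyma.11G056200 with -1.102 ± 0.22 (SE, adjusted p = 0.033), where W82 rose by 1.17 and DT2008 had 0.07. WRKY41 had -1.12 ± 0.22 (SE, adjusted p = 0.03), fell in DT2008 with a change of -1.07 and had 0.05 in W82. It was the only call among 66 WRKY probes, beside 0.840% of paired probes called as more negative. The calcium-binding EF-hand gene Glyma.06G258000 rose in both cultivars, by 4.32 and 3.05, with a difference of -1.27 ± 0.27 (SE, adjusted p = 0.048). Its cultivars overlapped before treatment, and DT2008 was lower with a log2 difference of -1.21 (adjusted p = 0.0007) at 10 h. The calls held in 4 of the 12, 7 of the 12 and 2 of the 12 fits for HSFB1, WRKY41 and the EF-hand gene.

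Phosphoinositide signalling, which relays stress through membrane lipids, was represented by a pair of genes the study had singled out. Glyma.20G189100, a match of the myotubularin-like phosphatase MTM1, had -1.29 ± 0.202 (SE, adjusted p = 0.0068). Its W-C arrays read -0.98, -0.904 and -1.01 and its W-D10 arrays 0.18, 0.06 and -0.0029, and the corresponding DT2008 arrays 0.0029, 0.18 and -0.01 and -0.53, -0.04 and 0.0032. The W-C values lay below all others, W82 rose by 1.05 and DT2008 had -0.24 (adjusted p = 0.32), and the call held in every fit that left out 1 array. Glyma.04G083000, a protein with a lipid-binding domain, rose in both cultivars, by 3.904 and 2.75, with a difference of -1.15 ± 0.24 (SE, adjusted p = 0.037). Its DT-C values, -1.89, -2.096 and -1.89, lay above those of W-C, -3.35, -3.49 and -3.197, and its call held in 5 of the 12 fits.

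Genes of less certain function made up the rest of the large negative differences. Glyma.08G297100, a zinc knuckle protein, had -2.06 ± 0.303 (SE, adjusted p = 0.0042) and was called in every fit that left out 1 array. In W-C the arrays read -0.92, -0.97 and -1.28, in W-D10 -0.34, 0.07 and -0.07, in DT-C 1.09, 1.02 and 0.79 and in DT-D10 -0.72, 0.16 and 0.11. DT2008 fell with a change of -1.12, W82 had 0.94 (adjusted p = 0.0048), and the values overlapped at 10 h. Glyma.19G181600, for which no description was given, had -1.78 ± 0.27 (SE, adjusted p = 0.0057). The W82 arrays read -0.75, -0.03 and -0.48 before and 2.84, 3.21 and 2.699 after 10 h, and those of DT2008 -0.21, -0.44 and -0.34 before and 1.32, 1.18 and 1.17 after. This gene differed from most others, since the cultivars overlapped before treatment and W82 rose more, by 3.34 against 1.56, without overlap at 10 h. That call, too, held in every fit that left out 1 array.

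The protein kinase gene Glyma.04G085900 had -1.67 ± 0.26 (SE, adjusted p = 0.0062) and Glyma.08G289700, without a description, -1.69 ± 0.29 (SE, adjusted p = 0.014), and both calls held in every fit that left out 1 array. Both fell in DT2008, with a change of -1.24 and -1.197, with 0.43 and 0.49 in W82. Glyma.03G195500, a Yip1 family membrane protein, had -2.06 ± 0.37 (SE, adjusted p = 0.017) and fell in DT2008 with a change of -2.84. It was called in 10 of the 12 fits. Glyma.01G192800 had -2.05 ± 0.37 (SE, adjusted p = 0.019) and rose in W82 by 1.95. Glyma.08G140600, a match of ferulate 5-hydroxylase (FAH1), an enzyme of lignin synthesis, had -1.92 ± 0.401 (SE, adjusted p = 0.04). It rose in W82 by 1.93 and had 0.01 in DT2008, and its call held in 2 of the 12 fits.

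Families could hold calls in both directions. Among the receptor-like kinases, Glyma.12G196500 had -1.45 ± 0.26 (SE, adjusted p = 0.019), opposite to CRK25. It was higher in DT2008 at both times, with 3.66 (adjusted p = 2.7e-10) before treatment and 2.21 (adjusted p = 3.9e-07) at 10 h. Among the NB-ARC genes, Glyma.13G184800 had -1.36 ± 0.25 (SE, adjusted p = 0.02), with 1.39 in W82 and 0.03 in DT2008, opposite to Glyma.13G190000. Among 19 UDP-glycosyltransferase probes, Glyma.07G067200 and Glyma.18G265800 had -1.34 ± 0.27 (SE, adjusted p = 0.033) and -1.58 ± 0.32 (SE, adjusted p = 0.037). Another, Glyma.10G172200, chosen here after its values were seen, had 1.56. Of the 19 probes, 18 of them in the study's tables, 1 was called as more positive and 2 as more negative. Among probes from those tables the shares were 0.807% and 1.45%.

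**Figure D4:**
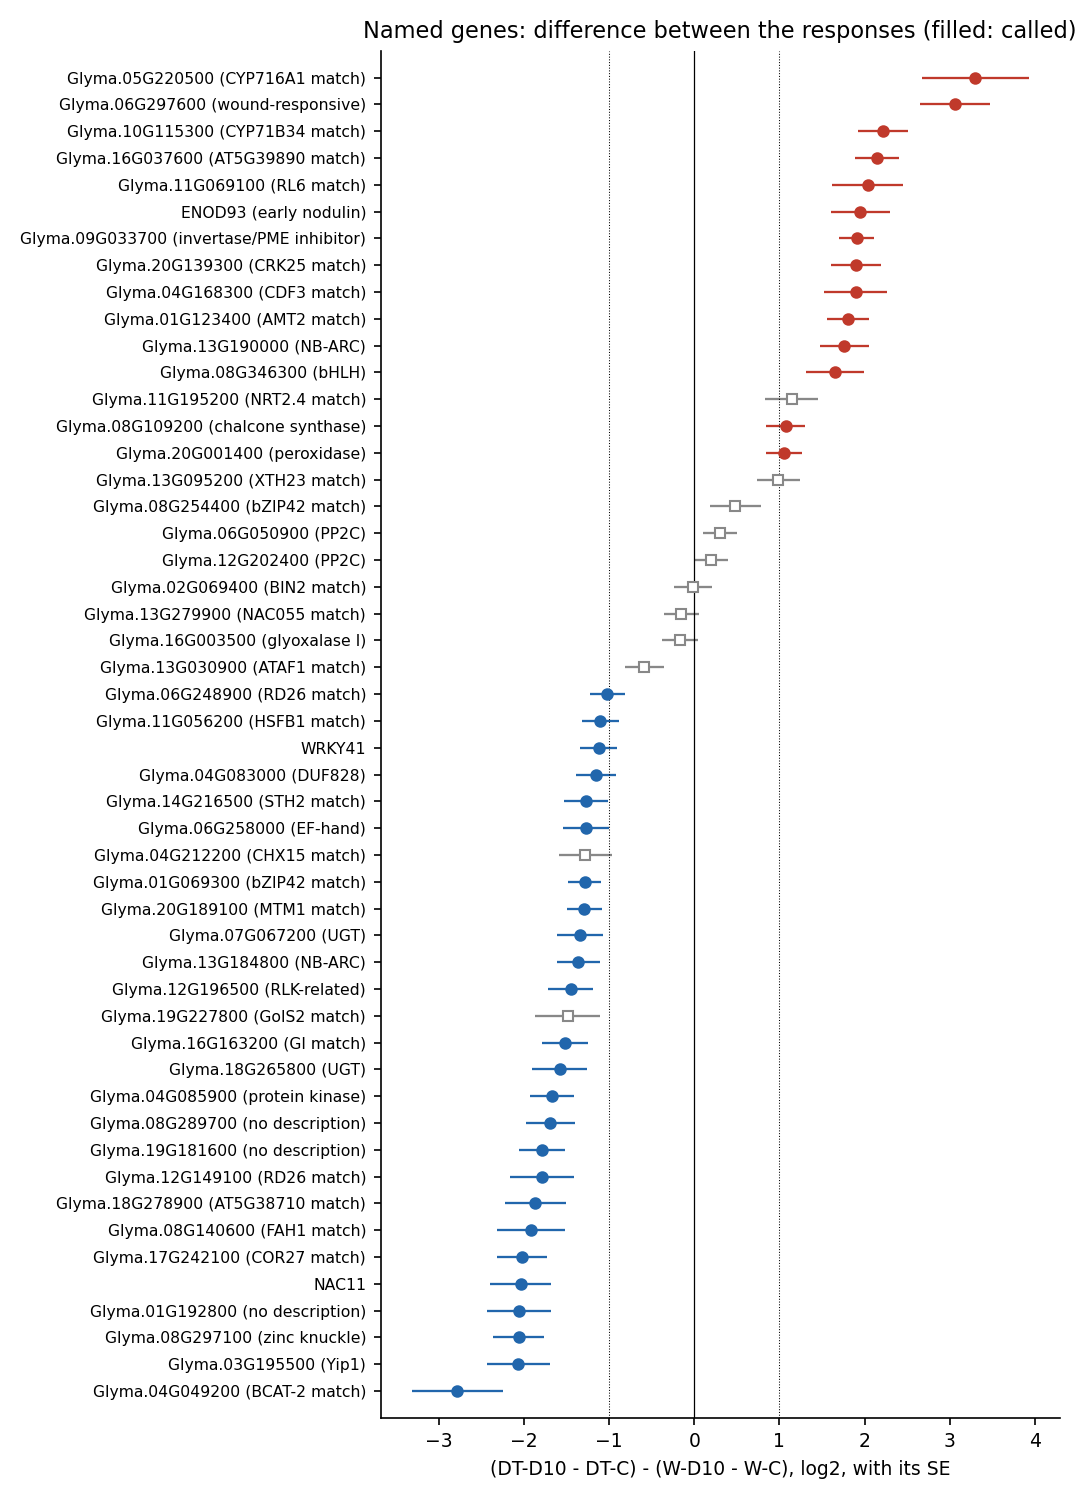
Difference between the 10 h responses, (DT-D10 - DT-C) - (W-D10 - W-C) on the log2 scale with its SE, for the 50 named genes. Filled circles are the 14 called as more positive (red) and the 25 called as more negative (blue) in DT2008, open squares are the 11 not called, and dotted lines mark 2-fold.

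Of 14 genes that the study listed as candidates or measured by RT-qPCR, 3 were called here as more negative, namely Glyma.14G216500, Glyma.20G189100 and Glyma.04G083000. Among probes from the study's tables, 0.807% were called as more positive and 1.45% as more negative. The paper lists these 3 genes as higher in DT-C than in W-C on these same arrays. Since DT-C and W-C also enter the difference, the 3 calls follow in part from that choice. Glyma.19G227800, a match of galactinol synthase GolS2, which makes the precursor of protective raffinose sugars, had -1.49 ± 0.38 (SE, adjusted p = 0.093). It rose in both cultivars, by 5.55 and 4.06, and the 95% interval of the difference was -2.28 to -0.698. The cation exchanger match Glyma.04G212200 (CHX15) had -1.28 ± 0.31 (SE, adjusted p = 0.081) and the nitrate transporter match Glyma.11G195200 (NRT2.4) 1.14 ± 0.31 (SE, adjusted p = 0.12). Their intervals were -1.93 to -0.62 and 0.48 to 1.801, which exclude 0 although neither passed the adjusted threshold.

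The cell wall gene Glyma.13G095200 (XTH23) rose in both cultivars, by 1.06 and 2.05, with a difference of 0.99 ± 0.25 (SE, adjusted p = 0.098). For the NAC genes Glyma.13G279900 and Glyma.13G030900 the differences were -0.15 ± 0.21 (SE, adjusted p = 0.85) and -0.59 ± 0.23 (SE, adjusted p = 0.31), with intervals of -0.59 to 0.29 and -1.06 to -0.11. The glyoxalase gene Glyma.16G003500 had -0.17 ± 0.21 (SE, adjusted p = 0.82), and the BIN2 kinase match Glyma.02G069400 had -0.01 ± 0.23 (SE, adjusted p = 0.99) with an interval of -0.48 to 0.46. The protein phosphatase 2C genes Glyma.06G050900 and Glyma.12G202400 had 0.302 and 0.196, and the bZIP42 match Glyma.08G254400 had 0.48 ± 0.300 (SE, adjusted p = 0.58).

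Several stress-related lists held no call in either direction. With 0.497% and 0.840% of paired probes called, lists of these sizes can hold 0 calls without standing apart. All 4 galactinol and raffinose probes rose in both cultivars, beside 3.49% and 2.75% of all probes. They were in the study's tables and so chosen on these samples. Their differences ran from -1.49 to 0.45 with a median of -0.91. The 27 glutathione S-transferase probes, which encode detoxifying enzymes, had a median of -0.45 and 22 values below 0. Of these, 9 had a negative difference at an unadjusted p under 0.05, as did 4041 of all 66195 probes. The study's tables held 9 of the 27. No call was made among 18 probes of abscisic acid signalling (median 0.04), 5 of late embryogenesis abundant proteins (-0.19), 13 of protein phosphatases 2C (0.11), 39 of AP2/ERF factors (0.10), 28 of MYB factors (-0.20), 23 of jasmonate synthesis and signalling (-0.17), 21 of auxin response (0.23), 8 of aquaporins (-0.32) and 12 of ABC transporters (0.0026). At an unadjusted p under 0.05 these lists held from 0 to 5 positive and from 0 to 6 negative values. Over all probes 3580 positive and 4041 negative values passed that level.

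The flavonoid list of 28 probes had 1 positive call, 22 values above 0 and a median of 0.29, and the 26 class III peroxidase probes had 1 positive call, 19 values above 0 and a median of 0.39. Of the 37 cell wall probes 1 was more positive, of 27 calcium signalling probes 1 was more negative and of 28 heat shock probes 1 was more negative. At these list sizes a single call is the smallest count that can be seen. It can be read only beside the shares called, 0.497% and 0.840% of paired probes. Among probes from the study's tables the shares were 0.807% and 1.45%. Those tables held 34 of the 37 cell wall, 22 of the 26 peroxidase and 21 of the 27 calcium probes. They also held 20 of the 28 heat shock and 5 of the 28 flavonoid probes.

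**Figure D5:**
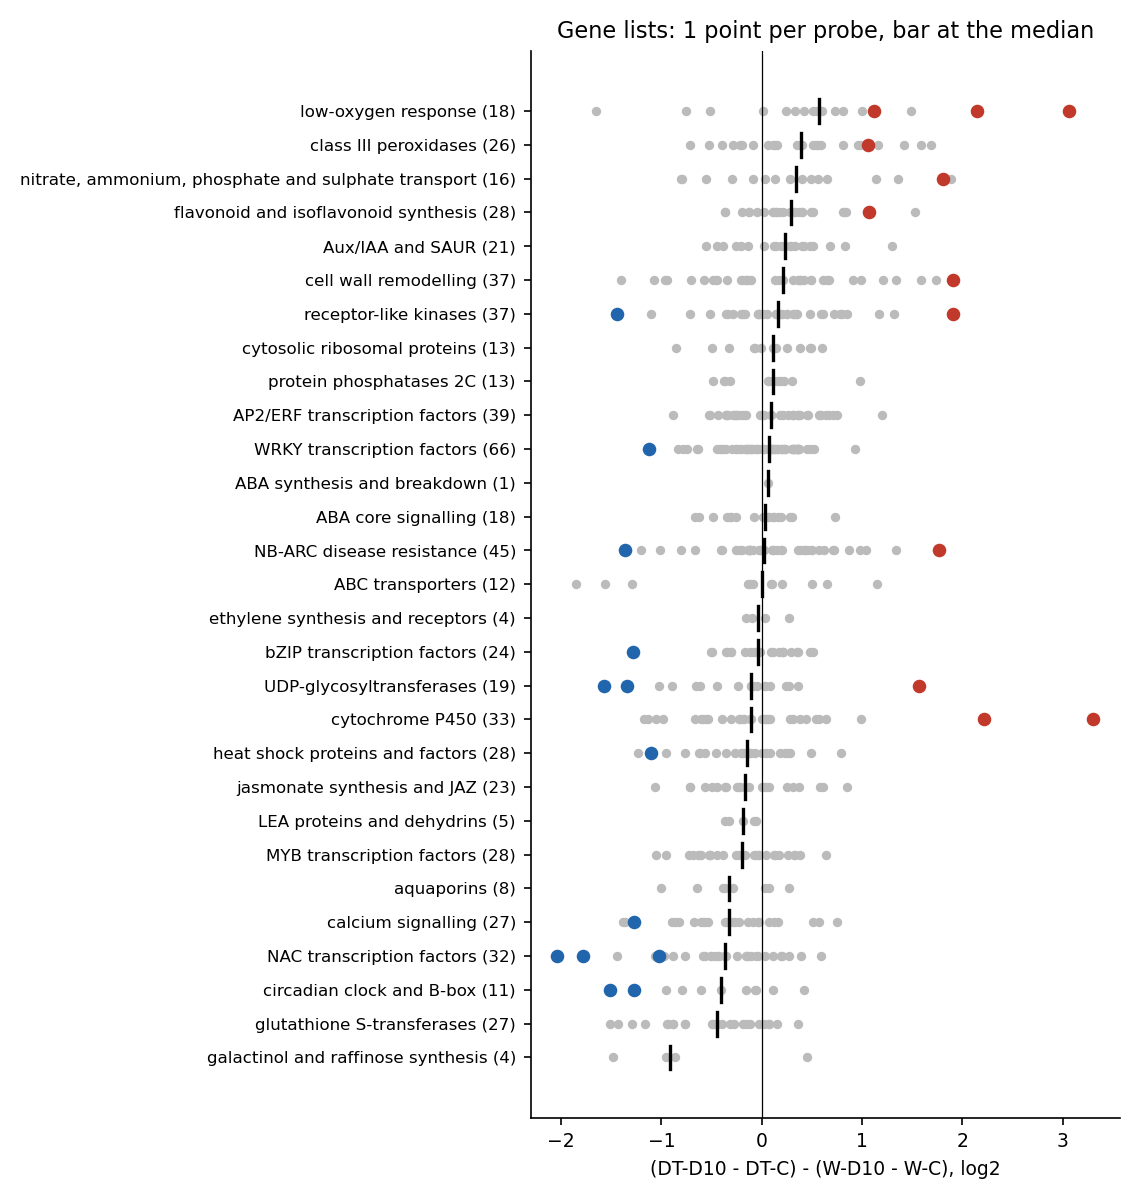
Difference between the 10 h responses on the log2 scale for the probes of each gene list, with the number of probes after the name and a bar at the list median. Red and blue points were called as more positive and more negative in DT2008, the low-oxygen list has 3 red points and a median of 0.57, and the NAC list has 3 blue points and a median of -0.37.

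Among the called probes without a paired gene, 74 were more positive and 109 more negative. The largest positive difference of the array, 5.07 ± 0.99 (SE, adjusted p = 0.031), belonged to probe 11823725. Values on single arrays were 0.42, 1.62 and 0.68 in W-C and -4.32, -2.95 and -3.19 in W-D10, against 0.98, -0.46 and 0.17 in DT-C and 0.97, 0.47 and 1.26 in DT-D10. W82 fell and the DT2008 values overlapped between times. Probe 12140418 had the lowest adjusted p of the comparison, with a difference of 3.60 ± 0.34 (SE). Its W-C arrays read -0.01, -0.09 and -0.45 and its W-D10 arrays -0.22, -0.16 and 0.01, and the corresponding DT2008 arrays -0.503, -0.17 and -0.23 and 3.36, 3.75 and 2.97. DT2008 rose by 3.66 from a starting value that overlapped that of W82, which had 0.06, and was already at 2.47, 3.22 and 3.54 in DT-D2.

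The largest called negative difference, -4.76 ± 0.86 (SE, adjusted p = 0.018), belonged to probe 12219842. In W-C the arrays read -2.73, -3.22 and -3.17, in W-D10 -0.31, -0.04 and -1.53, in DT-C 2.67, 1.82 and 2.24 and in DT-D10 -0.21, 0.04 and -0.15. W82 rose and DT2008 fell, and the values lay closer together at 10 h than before. Probe 11814241 followed with -3.50 ± 0.71 (SE, adjusted p = 0.036), where W82 rose by 3.18 and DT2008 had -0.33.

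A probe that was not called had a larger difference than any of these, and it was chosen here after its values were seen. Probe 11823277 had -6.71 ± 1.601 (SE, adjusted p = 0.073). The W82 arrays read 0.08, -0.01 and 0.17 before and 7.14, 7.03 and 6.602 after 10 h, and those of DT2008 -0.15, -0.204 and -0.402 before and -0.09, -0.06 and -0.21 after. The 3 W-D10 values lay far above the 9 others. The large SE came from the 2 h arrays, which share the spread in the test, since W-D2 read 7.33, 0.22 and 7.53. With the 12 arrays of the comparison alone the SE was 0.22 and the adjusted p 1.04e-09. W-D2 replicate 2 also stood apart from the other W-D2 arrays for probe 11823725, at 0.50 against -3.59 and -2.99, for probe 11814241, at -2.996 against -0.08 and 0.06, and for probe 12219842, at -3.13 against 0.24 and 0.46. For these last 3 probes it lay inside the range of W-C. Leaving that array out gave 103 more positive and 147 more negative probes, of which 90 and 139 were among those above.

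Markers of other tissues were compared across the groups. The mean of 9 photosynthesis probes, 7 of them in the study's tables, ran from -0.54 to -0.42 in W-C and from -0.16 to 0.24 in W-D10. It ran from -0.46 to -0.15 in DT-C and from -0.02 to 0.40 in DT-D10. None of the 9 was called for the difference between responses, beside 0.497% and 0.840% of paired probes. At 2 h the cultivars lay further apart, from -0.33 to -0.097 in W-D2 and from 0.41 to 0.67 in DT-D2. The mean of 15 nodule probes stayed between -0.30 and 0.09 in all 6 groups. Their part in the results was not tested. Since each probe is centred on its own median, absolute levels of these markers and of root genes cannot be read from the values, and the tissue label was not checked in that way.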

How the data were processed

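Roots were hybridised to 66K soybean arrays, 3 per group in 6 groups. The authors summarised probes with RMA in Affymetrix Expression Console and processed them in GeneSpring version 11, and the deposited values are log2 signals. Every probe has a median of 0 over the 18 arrays, so brightness is not in the values and no filter on dim probes was possible. The number of arrays limits the precision.

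Means of the 6 groups were fitted to all 66195 probes with limma 3.58.1 in R 4.3.3 (12 residual degrees of freedom, prior 6.28), p-values were adjusted by Benjamini-Hochberg, and a call needed an adjusted p under 0.05 and a 2-fold difference. The script was tested on simulated data. Genes were named for 5833 probes paired with 1 gene. The text names the 12 largest called differences in each direction, up to 2 called members of each gene list, 14 candidate or RT-qPCR genes of the study, and the 2 largest unpaired probes each way. The genes, the 31 lists and the tests were chosen with earlier results of these data known. RefSeq (Glycine_max_v4.0) served only to check symbols. Alternatives were other arrays in the fit, scalings, variance models and thresholds. Columns of the authors' own comparisons were not used. Promoter motifs were not analysed here.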

Additional observations from a re-analysis of the deposited data

Results flagged for a closer look

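The comparison itself tests whether responses differ between the cultivars, and each called result is listed here for that reason. By the difference of the 10 h responses (limma, adjusted over all probes), 103 probes were more positive and 158 more negative in DT2008. The log2 differences of the called named genes were, in the positive direction, Glyma.05G220500 3.30, Glyma.06G297600 3.06, Glyma.10G115300 2.21, Glyma.16G037600 2.15, Glyma.11G069100 2.04, ENOD93 1.95, Glyma.09G033700 1.91, Glyma.20G139300 1.90, Glyma.04G168300 1.90, Glyma.01G123400 1.80, Glyma.13G190000 1.76, Glyma.08G346300 1.66, Glyma.08G109200 1.07 and Glyma.20G001400 1.06. In the negative direction they were Glyma.06G248900 -1.02, Glyma.11G056200 -1.10, WRKY41 -1.12, Glyma.04G083000 -1.15, Glyma.14G216500 -1.27, Glyma.06G258000 -1.27, Glyma.01G069300 -1.29, Glyma.20G189100 -1.29, Glyma.07G067200 -1.34, Glyma.13G184800 -1.36, Glyma.12G196500 -1.45, Glyma.16G163200 -1.52, Glyma.18G265800 -1.58, Glyma.04G085900 -1.67, Glyma.08G289700 -1.69, Glyma.19G181600 -1.78, Glyma.12G149100 -1.79, Glyma.18G278900 -1.87, Glyma.08G140600 -1.92, Glyma.17G242100 -2.02, NAC11 -2.04, Glyma.01G192800 -2.05, Glyma.08G297100 -2.06, Glyma.03G195500 -2.06 and Glyma.04G049200 -2.78. Single probes were not tested for outlying arrays within groups of 3. Over all probes, W-D10 replicate 3 had the lowest array weight, 0.523.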

How the results depend on the processing

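The counts of 103 more positive and 158 more negative probes stayed within 1.5 times under median centring, quantile normalization, only the 12 arrays, the replicate block, other fold thresholds and, added after seeing the data, without W-D2 replicate 2. With only the 12 arrays, 70 of 102 and 103 of 131 calls were among those above. Array weights gave 156 more positive probes. Mean-variance trend with robust moderation gave 54 and 87, where the trend follows the mean of centred values and not brightness. The unmoderated statistic on 12 arrays, the closest form of the methods' t-test for a difference of differences, gave 5 and 7. Adjusting over only the 5833 paired probes, which hold 29 and 49 of the calls, gave 60 and 114, from fewer tests, and added calls for Glyma.19G227800, Glyma.04G212200 and Glyma.11G195200 and for members of several lists. Fits leaving out 1 of the 12 arrays gave 46 to 127 and 69 to 232. The cause of the other changes was not tested.

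Of the 39 called named genes, quantile normalization kept 20, trend with robust moderation 21 and the unmoderated statistic 1, and no called gene changed sign in any of these fits. Among the 11 not called, quantile normalization turned Glyma.08G254400 to -0.12, Glyma.06G050900 to -0.013 and Glyma.16G003500 to 0.11. Glyma.02G069400 lay between -0.1048 and 0.1108 in the fits without 1 array.

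Same-numbered replicates were not paired by any label. Over 18 same-numbered pairs the correlation of deviations from group means ran from -0.17 to 0.187 (median -0.0119), and over 36 other pairs from -0.297 to 0.243. The replicate block gave 83 and 115 calls. With 3 arrays per group the depth of each probe's signal over background could not be judged from centred values.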
